A study of Homo sapiens with 6 samples.

Results

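Claudins, cadherins, protocadherins, nectins, the cytoplasmic plaque proteins they bind and the polarity complexes build the lateral contacts of epithelial cells. Members were the genes whose printed symbol belongs to these families or to the core tight-junction and polarity proteins, leaving out E-cadherin (CDH1), and 34 of 7681 listed genes matched. The comparison was between 3 cultures of the colorectal carcinoma line HCT116 labelled Rab27B KO, in which RAB27B was targeted with CRISPR/Cas9, and 3 cultures of HCT116 labelled wild type (WT). All 6 were untreated and were grown for 48 hours, and the labels do not say whether the KO cells are 1 clone or a pool. RNA was sequenced, and the data analysed here were the authors' own comparison: 1 table of genes higher and 1 of genes lower in the KO-labelled samples, each with a log2 fold change of KO over WT and a q-value, a p-value adjusted for multiple tests. Every listed gene has a q-value below 0.05. Values per sample were not analysed here, and no level, replicate spread, depth or standard error stands behind a fold change, and a gene in neither table was either not past the threshold or not measured.

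In epithelia, tight junctions seal the space between neighbouring cells: claudins form the strands and their pores, MARVEL-domain proteins and junctional adhesion molecules accompany them, and the ZO proteins and cingulin tie them to actin. Below them, adherens junctions hold cells together through cadherins, bound inside the cell by catenins, and through nectins, bound by afadin. The Par, Crumbs and Scribble complexes set the border between the apical and the basolateral membrane, which lies at these junctions. Colon epithelium depends on all of them for its barrier.

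RNA of the targeted gene ran against its label. RAB27B, a small GTPase of secretory vesicles, was 36.7-fold higher in cultures labelled Rab27B KO (log2 fold change 5.20, q listed as 0) per the authors' deposited table. Directions below are therefore those of the labelled samples and cannot be tied to loss of the transcript. Whether the labels or the direction of the ratio were exchanged was not tested, and if they were, every gene given as lower here would be higher and the reverse. Marker genes of several cell types were counted, where 37.9% of all annotated protein-coding genes were listed and 50.7% of all listed genes were higher. Of 13 markers of colon epithelium 5 were listed higher and 3 lower. EPCAM had a log2 fold change of -1.15 and CDH1 one of -1.15, while those of the keratins KRT8, KRT18 and KRT20 were 0.61, 0.47 and 2.08 per the authors' deposited table; these 5 were named after their values were seen. Of 7 endothelial markers 1 was listed and higher, of 7 fibroblast markers 1 was higher and 1 lower, of 7 leukocyte markers 2 were higher, and of 6 neural markers 1 was higher and 1 lower. The higher ones had log2 fold changes of 0.66 (ESAM, endothelium), 1.77 (COL3A1, fibroblasts), 1.81 and 1.34 (CD68 and LYZ, leukocytes) and 1.74 (SYP, neurons) per the authors' deposited table. The defining markers PTPRC, PECAM1 and PDGFRB were in neither table. Their part in the results below was not tested.

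Listed junction and polarity genes were mostly lower in the samples labelled Rab27B KO. Of the 34 listed members 27 were lower and 7 higher, a share of 79.4% lower against 49.3% of all 7681 listed genes, and of 20.6% higher against 50.7%. Their median log2 fold change was -0.38, against 0.12 over all listed genes, with an interquartile range of -0.62 to -0.19. Most of the changes were small: 19 members stayed under 0.5 in absolute log2 fold change, and only 5 (CLDN2, PCDHB14, MARVELD3 and PARD3B among them) fell and 1 (CDH15) rose by 1 or more. Those 5 falls are 14.7% of the members, where 6.5% of all listed genes fell that far, and the single rise stands beside 6.11% of all listed genes. The lower members had a median of -0.47, close to the -0.41 of all lower genes. The share of lower genes among the listed members was thus above that of all listed genes, while the typical fall was of similar size. No test was added to these counts, since the tables hold no unchanged genes.

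**Figure D1:**
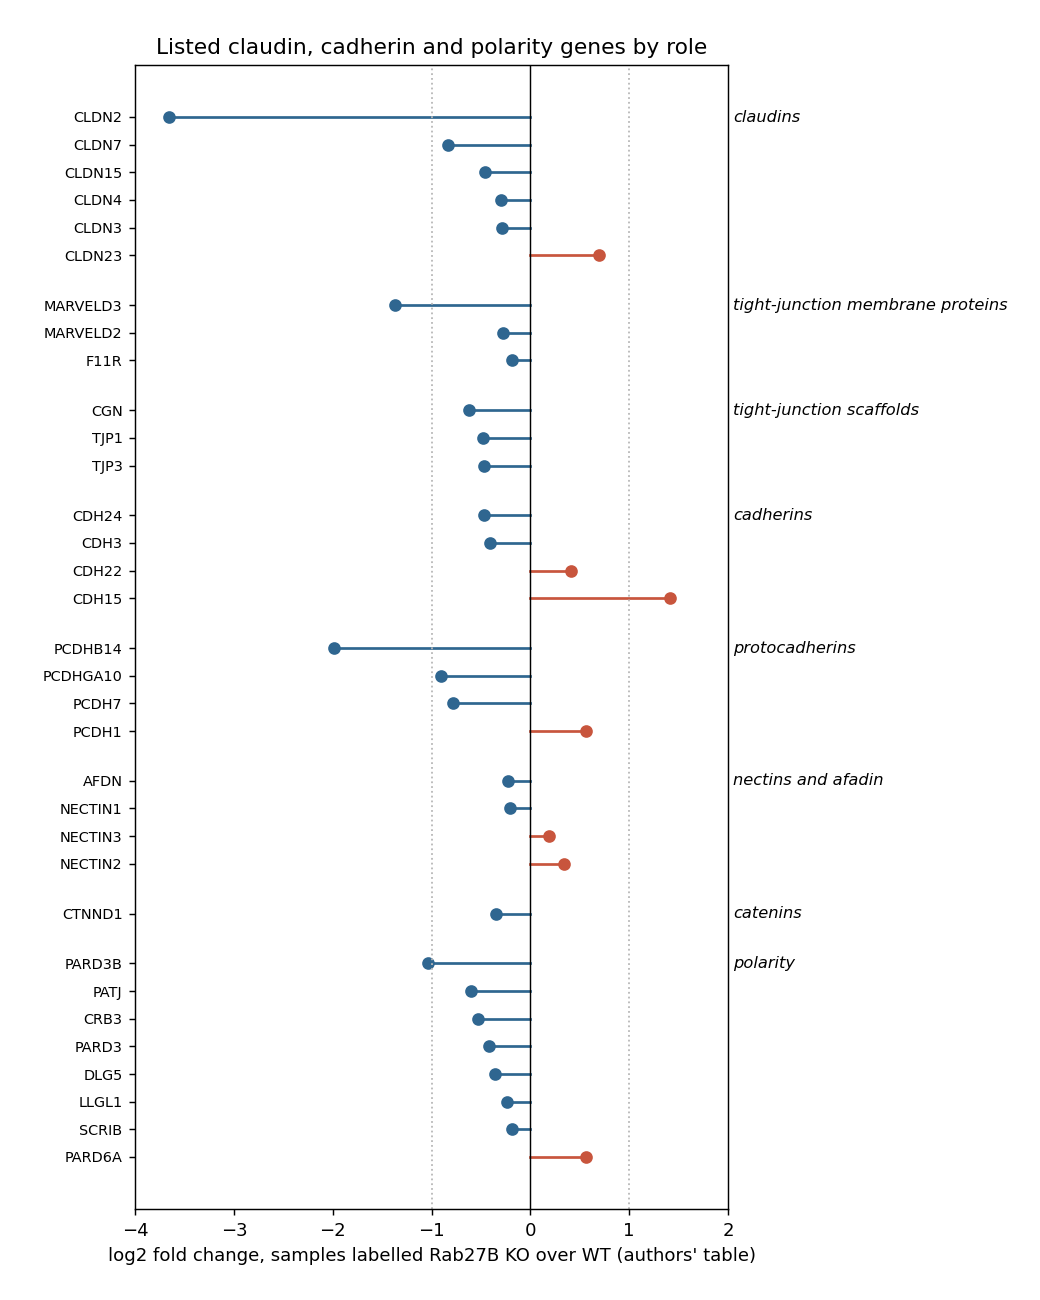
Log2 fold change of the samples labelled Rab27B KO over WT for the listed members reported by name, grouped by role, from the authors' deposited table. Each line with a point is 1 gene, blue where lower and red where higher, and dotted lines mark a log2 fold change of -1 and 1. CLDN2 at -3.66 reaches farthest, and the 7 red points are spread over the claudins, cadherins, protocadherins, nectins and polarity genes.

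Of 24 protein-coding claudins in the annotation 6 were listed, 5 lower and 1 higher, with a median log2 fold change of -0.38. Lower genes made up 49.3% of all listed genes, and 18 claudins were in neither table. CLDN2 (gene ID 9075; chrX:106900164-106930861), which forms a pore for cations and water and is typical of leaky epithelia and intestinal crypts, had the largest change of all members, with a log2 fold change of -3.66 or a 12.6-fold fall (q = 2.77e-34) per the authors' deposited table. Of the 3783 lower genes, 1.96% fell farther than it did. CLDN7 (chr17:7259903-7263213), a claudin of the basolateral membrane that binds EPCAM, was 1.78-fold lower per the authors' deposited table, with the smallest q-value of the claudins at 3.03e-64. CLDN15, another cation-pore claudin of the intestine, was 1.38-fold lower (q = 8.43e-04) per the authors' deposited table.

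CLDN3 and CLDN4, sealing claudins, gave nearly the same small fall. CLDN4 was 1.23-fold lower (q = 1.21e-10) and CLDN3 1.22-fold lower (q = 9.76e-04) per the authors' deposited table. They are neighbours on chromosome 7 of GRCh38, CLDN3 at chr7:73768997-73770270 and CLDN4 at chr7:73830996-73832690. Their sequences were not compared here, and whether reads were shared between them was not tested. CLDN15 lies on the same chromosome, where 67.0% of all listed genes were lower. CLDN23, a claudin of gut epithelium, was the exception at 1.62-fold higher (q = 0.00235) per the authors' deposited table. CLDN1 and CLDN12 were among those in neither table.

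The remaining tight-junction membrane proteins and scaffolds were lower without exception among those listed. MARVELD3 (chr16:71626184-71641965), a 4-pass membrane protein of the tight junction, was 2.58-fold lower (q = 8.48e-42) per the authors' deposited table. MARVELD2 (tricellulin), which sits where 3 cells meet, was 1.21-fold lower with a q-value of only 0.0156, and F11R, the junctional adhesion molecule JAM-A, was 1.14-fold lower (q = 8.55e-04) per the authors' deposited table. Occludin (OCLN), the founding member of the MARVEL group, was in neither table. The falls in this group thus ranged from slight in F11R to marked in MARVELD3.

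Among the scaffolds, the listed genes were lower. TJP1 (ZO-1) was 1.39-fold lower (q = 1.03e-28) and TJP3 (ZO-3) 1.38-fold lower (q = 1.01e-09) per the authors' deposited table. CGN (cingulin), which links ZO proteins to the actomyosin ring, was 1.54-fold lower (q = 4.47e-10) per the authors' deposited table, and its paralog CGNL1 was in neither table. Claudins, membrane proteins and scaffolds of the tight junction together gave 12 lower genes and 1 higher gene, with a median log2 fold change of -0.47. Of all listed genes 49.3% were lower, with a median of 0.12. This pooling was not among the planned role groups. TJP1 lies on chromosome 15, where 80.2% of the listed genes were lower.

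**Figure D2:**
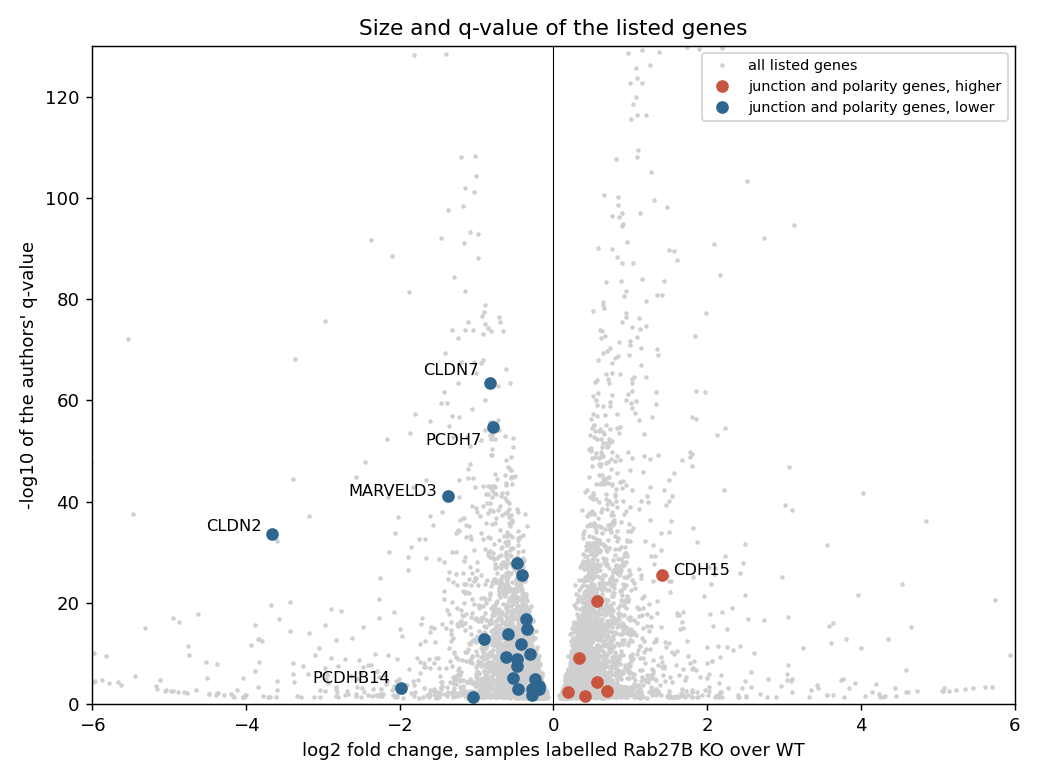
Log2 fold change of the samples labelled Rab27B KO over WT (x axis) against -log10 of the authors' q-value (y axis) for all listed genes (grey), with lower members in blue and higher members in red, where reported by name. The axes end at -6, 6 and 130 and leave out 102 genes, none of them a member. CLDN7, PCDH7, MARVELD3 and CLDN2 stand apart from the other members on the lower side, and CDH15 on the higher side.

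Cadherins other than E-cadherin went both ways, and few were listed. Of 22 annotated genes 4 were listed, 2 lower and 2 higher. Among all annotated protein-coding genes 37.9% were listed, and 49.3% of all listed genes were lower. CDH3 (P-cadherin), a classical cadherin of epithelia, was 1.33-fold lower (q = 2.76e-26) per the authors' deposited table, and its neighbour CDH1, which starts 3521 bases away and is not counted here, was 2.22-fold lower. CDH24, a type II cadherin, was 1.38-fold lower (q = 3.33e-08) per the authors' deposited table. CDH15 (M-cadherin; chr16:89171748-89195492), known from muscle, was 2.66-fold higher (q = 2.98e-26), the largest rise of any member, and CDH22 was 1.33-fold higher with a q-value of only 0.0273 per the authors' deposited table. CDH2 (N-cadherin), CDH5, CDH11 and CDH17 were in neither table. The table of listed genes therefore shows lower P-cadherin but no listed change of N-cadherin.

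Protocadherins, cadherin relatives best known from neurons, were mostly absent from the tables. Of 66 annotated genes 4 were listed, 3 lower and 1 higher, and of the 53 genes of the clusters on chromosome 5 only 2. By comparison, 37.9% of all annotated protein-coding genes were listed, and 49.3% of all listed genes were lower. PCDH7 was 1.72-fold lower (q = 1.44e-55) and PCDH1, which is also found in epithelia, 1.48-fold higher (q = 3.64e-21) per the authors' deposited table. PCDHB14 was 3.95-fold lower (q = 7.54e-04) and PCDHGA10 1.87-fold lower (q = 1.46e-13) per the authors' deposited table. Values of both cluster genes are uncertain: the PCDHG genes share their last exons with each other, the PCDHB genes are close paralogs, and the sources used here do not say how shared reads were counted. PCDH7 lies on chromosome 4, where 83.2% of all listed genes were lower.

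Of 3 listed nectins 2 were higher and 1 lower, all slightly. Among all listed genes 50.7% were higher, and 37.9% of annotated protein-coding genes were listed. NECTIN2 was 1.26-fold higher (q = 6.10e-10) and NECTIN3 1.14-fold higher (q = 0.00466) per the authors' deposited table. NECTIN1 was 1.15-fold lower (q = 2.47e-04), and AFDN (afadin), which binds the tails of nectins, 1.17-fold lower (q = 2.44e-04) per the authors' deposited table. NECTIN4 was in neither table. Of the 5 annotated genes with CTNNA or CTNND symbols only CTNND1 (p120-catenin) was listed. CTNND1, which holds cadherins at the cell surface, was 1.27-fold lower (q = 1.71e-15) per the authors' deposited table. CTNNA1 (α-catenin), the link to actin, was in neither table. Among other cadherin-binding catenins, which are no members, CTNNB1 (β-catenin) had a log2 fold change of 0.15 and JUP (plakoglobin) one of -0.37 per the authors' deposited table. ARVCF, a relative of p120-catenin with another symbol, had one of -0.49 (q = 9.09e-08) per the authors' deposited table. CTNNB1, JUP and ARVCF were named after their values were seen.

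Of 18 annotated polarity genes 8 were listed under their current symbols, 7 lower and 1 higher, with a median log2 fold change of -0.39. Among all listed genes 49.3% were lower. With PALS1, printed under an older symbol, 7 were lower and 2 higher, with a median of -0.36. In the Par complex, PARD3, its scaffold, was 1.34-fold lower (q = 1.40e-12), and its paralog PARD3B 2.06-fold lower per the authors' deposited table. The q-value of PARD3B, 0.0358, was the largest of any member. PARD6A, the Par6 subunit that binds atypical protein kinase C, went the other way at 1.47-fold higher (q = 4.27e-05) per the authors' deposited table. PARD6B and PARD6G were in neither table.

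In the Crumbs complex, which marks the apical side, both genes printed under their current symbols were lower. PATJ, a scaffold with many PDZ domains, was 1.51-fold lower (q = 1.34e-14) and CRB3, the epithelial Crumbs protein, 1.44-fold lower (q = 8.24e-06) per the authors' deposited table. The third subunit, PALS1, was printed under its older symbol MPP5 and so did not match the rule; it was 1.25-fold higher (q = 0.00302) per the authors' deposited table. Of the SCRIB, LLGL and DLG genes, grouped here as the basolateral Scribble module, the 3 listed were slightly lower. DLG5 was 1.28-fold (q = 1.47e-17), LLGL1 1.18-fold (q = 8.85e-06) and SCRIB 1.14-fold (q = 2.44e-04) lower per the authors' deposited table. LLGL2, DLG1, DLG2, DLG3 and DLG4 were in neither table.

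**Figure D3:**
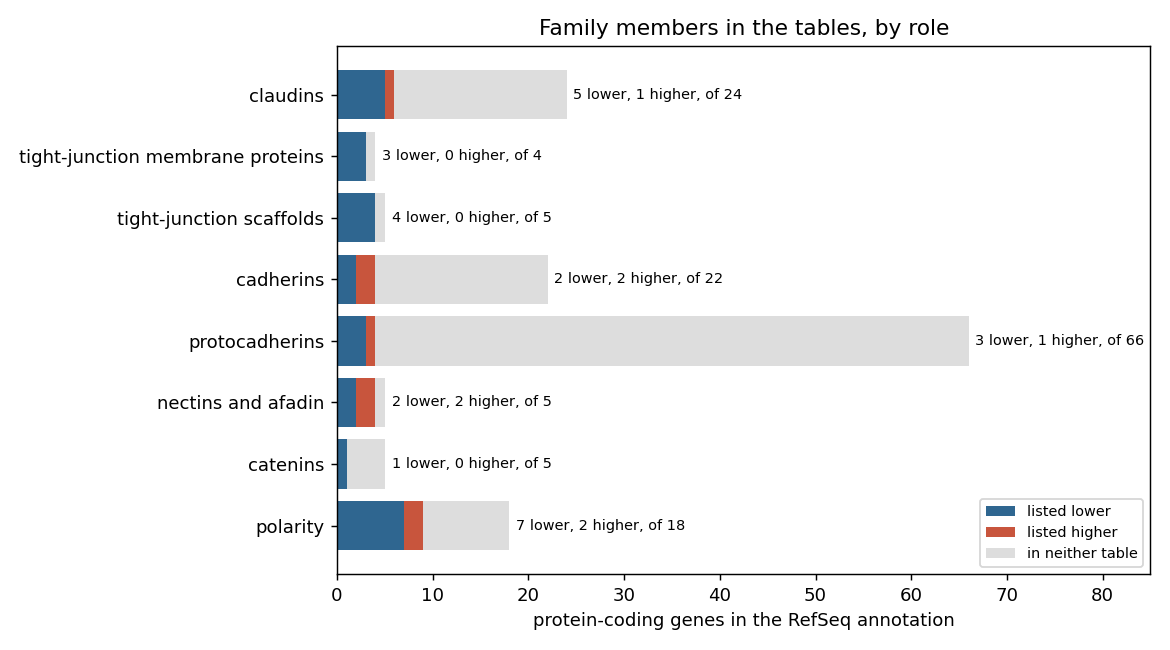
Number of protein-coding genes of each family in the RefSeq annotation (bar length), divided into genes listed lower (blue) and listed higher (red) in the samples labelled Rab27B KO and genes in neither table (grey). The polarity bar counts PALS1, printed as MPP5, among its 2 higher genes. The tight-junction bars hold 3 of 4 and 4 of 5 genes listed lower, while 62 of 66 protocadherins were in neither table.

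Being listed at all was no more common in these families than elsewhere. Of 149 annotated protein-coding members, PALS1 included, 35 were listed, or 23.5%, against 37.9% of all 20056 annotated protein-coding genes. Without the clustered protocadherins the share was 33 of 96, or 34.4%. By role it ran from 6.06% of protocadherins and 18.2% of cadherins to 80.0% of the tight-junction scaffolds. Of all annotated genes 18.7% were listed lower and 19.2% higher. Of the 149 members 27 were listed lower, a share near the first of these, and 8 higher, a share well below the second. How many of these genes were measured is unknown, so the shares mix expression with change.

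Members were carried by 18 chromosomes. Since earlier results of these data show that most listed genes on chromosomes 4, 7, 13 and 15 were lower, members there were counted apart: all 5 (PCDH7, CLDN3, CLDN4, CLDN15 and TJP1) were lower, where 77.1% of the 1103 listed genes were. Of the other members 22 of 29 were lower, against 44.6% of the other 6578 listed genes. Listed genes within 100 kb of a lower member shared its direction in 28 of 63 pairs, or 44.4%, against 52.1% of such pairs around all lower listed genes. A few neighbours were picked out after their values were seen. MARVELD3 and CLDN2 had listed neighbours that were lower too: CHST4 near MARVELD3 had a log2 fold change of -5.97 and MORC4 near CLDN2 one of -0.79 per the authors' deposited table. CLDN7, TJP3 and LLGL1 overlap the genes ELP5, APBA3 and FLII, which were listed higher, at log2 fold changes of 0.20, 0.30 and 0.13 per the authors' deposited table. The sources used here do not say whether reads were counted by strand, so these 3 falls are uncertain by the reads of the overlapping gene.

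Transcript length moved with direction in these tables. The longest protein-coding transcript of the lower members had a median of 4835 bases, against 4287 for all lower listed genes. For the higher members it was 2847 bases, against 2809 for all higher listed genes. The part of length in the members' lean was not tested.

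Lists of other genes at the same junctions were split between the directions. For comparison with the counts that follow, 37.9% of all annotated protein-coding genes were listed. Of 33 further tight-junction genes 17 were listed, 11 higher and 6 lower, with a median log2 fold change of 0.25. The lower ones included ILDR2 at -1.20 and ILDR1 at -0.70, both proteins of tricellular contacts. The highest were HEG1 at 1.11 and ARHGEF2 at 0.75 per the authors' deposited table. Of 30 adherens-junction partners 19 were listed, 10 higher and 9 lower. PLEKHA7, which joins p120-catenin to microtubules, was 2.31-fold lower, whereas VCL (vinculin), ZYX (zyxin) and ACTN4, which bind actin at contacts, were 1.42-fold, 1.36-fold and 1.37-fold higher per the authors' deposited table. The last 3 were chosen after their values were seen. Of 32 polarity partners 24 were listed, 13 higher and 11 lower. VANGL2 of planar polarity was lowest at a log2 fold change of -1.47 and RASSF8 highest at 0.96 per the authors' deposited table. Of 20 large and atypical cadherins 11 were listed, 6 higher and 5 lower. The giant cadherins DCHS1 and FAT1 stood at -1.91 and -0.90 and FAT2 at 1.49 per the authors' deposited table. The medians of the 4 partner lists lay between 0.15 and 0.25, near the 0.12 of all listed genes, of which 50.7% were higher; the members' median was -0.38. CELSR1 and CELSR3 stood in both the polarity and the large-cadherin list.

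**Figure D4:**
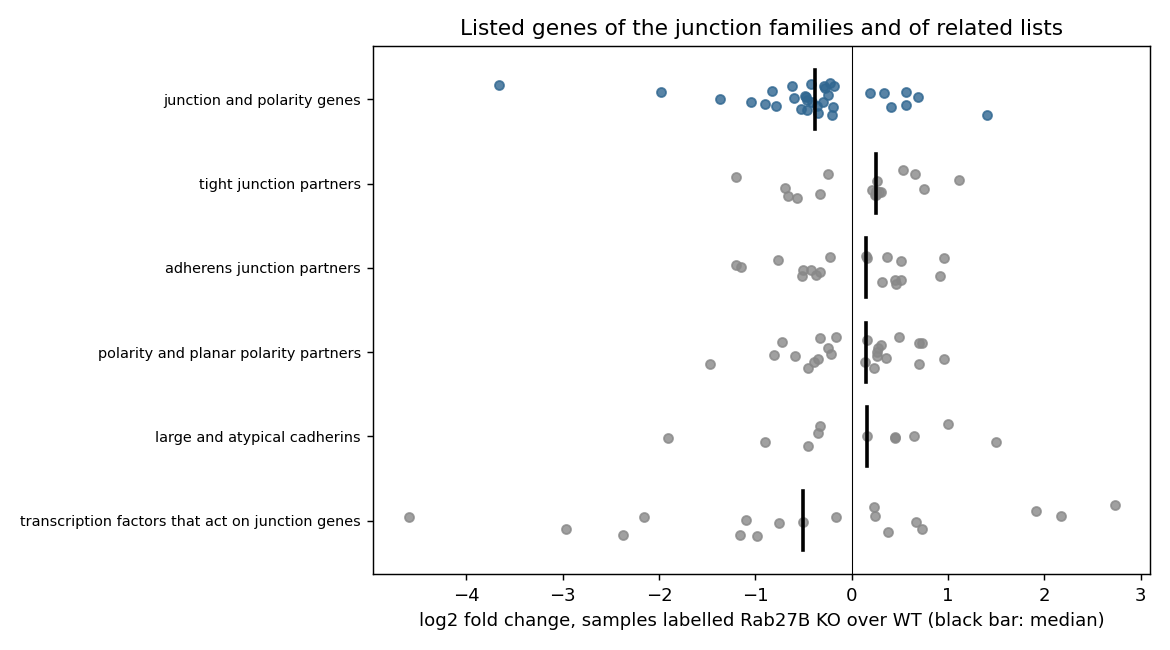
Log2 fold change of the samples labelled Rab27B KO over WT for the listed members (blue, top row) and the listed genes of 5 related lists (grey; genes not reported by name count in the medians but have no point), from the authors' deposited table. Each point is 1 gene, vertical scatter within a row has no meaning, and black bars mark medians. The members' median is -0.38, the 4 partner lists have medians between 0.15 and 0.25, near the 0.12 of all listed genes, and the points of the transcription factors reach from -4.60 to 2.74.

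Several transcription factors that act on junction genes had large changes. Of 27 such factors 19 were listed, 8 higher and 11 lower, and 10 of the 19 changed by a log2 of 1 or more. Of all listed genes 12.6% changed that far and 49.3% were lower, and 37.9% of annotated protein-coding genes were listed. The list also holds the splicing regulators ESRP1 and ESRP2. GRHL2, an activator of claudin and cadherin genes in epithelia, had a log2 fold change of -4.60 (q = 2.21e-207), and HNF4A, a factor of gut epithelium, stood at -2.97 per the authors' deposited table. ZEB1, which represses epithelial genes, had one of 2.74 (q = 9.85e-93) per the authors' deposited table. SNAI2 and SNAI1, repressors that bind the same DNA letters as ZEB1, were at 1.91 and 0.66 per the authors' deposited table, and were chosen after their values were seen. Other factors of epithelia went both ways: KLF4 was at 2.17 and KLF5 at 0.24, and GRHL3 was at -2.38 and OVOL1 at -2.16 per the authors' deposited table; these 4 were also chosen after their values were seen. The part of any of these factors in the members' values was not tested.

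Since ZEB and SNAI factors bind the E-box CACCTG, whose reverse complement reads CAGGTG, member promoters were searched for it on both strands; no other motif was searched. RefSeq windows of 250 bases before to 50 after a start site (GRCh38.p14) were at hand for 21 of the 34 members, 27 windows in all. The E-box was in 10 of the 27 windows, or 37.0%, against 19.0% of the 9304 windows of all listed genes and 20.6% of all 35116 windows. Windows of lower members held it in 8 of 23 cases, those of higher members in 2 of 4. Over all listed genes the shares were close in both directions, at 19.4% of lower and 18.6% of higher windows. Windows of family genes that were not listed held it in 19 of 148 cases, or 12.8%. Whether the E-box goes with the falls of the members was not tested. At least 2 E-boxes were in 4 of the 27, or 14.8%, against 3.14% for all listed genes. These 4 windows belong to CRB3, CLDN7, PATJ and AFDN, all lower, with 5, 5, 3 and 4 E-boxes. CLDN2, the most changed member, has no such letters in its windows. A match is a description of letters, not a bound site.

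The E-boxes of CRB3, CLDN7 and PATJ are shown because these windows hold several and belong to a claudin and to 2 Crumbs-complex genes, CRB3 and PATJ, that were lower. Each stretch of 30 bases is read 5′ to 3′ on the gene's strand from RefSeq (GRCh38.p14), with every E-box that lies whole within it in capitals. Distances count from the start site as 0 to the first base of the central E-box.
CRB3, -228, chr19:6464031-6464060, plus strand: atgctcgcaatgCAGGTGtaaggtccccct
CRB3, -208, chr19:6464051-6464080, plus strand: aggtccccctcaCACCTGcgcgcttccgcg
CRB3, -147, chr19:6464112-6464141, plus strand: ggggtcccgttaCAGGTGcgcccacagcgc
CRB3, -89, chr19:6464170-6464199, plus strand: ctcagcgaggctCAGGTGcacaagccggaa
CRB3, -60, chr19:6464199-6464228, plus strand: agtgcgctctccCAGGTGagtgactaaact
CLDN7, -174, chr17:7262635-7262664, minus strand: tttcttcctcctCACCTGggcaaggagggg
CLDN7, -135, chr17:7262596-7262625, minus strand: cgacttccggttCAGGTGagtgtcccttcg
CLDN7, -20, chr17:7262481-7262510, minus strand: cctacatatactCAGGTGcgcccCACCTGt
CLDN7, -9, chr17:7262470-7262499, minus strand: tCAGGTGcgcccCACCTGtccgcccgcacc
CLDN7, 5, chr17:7262456-7262485, minus strand: cctgtccgcccgCACCTGctggctcacctc
PATJ, -171, chr1:61742297-61742326, plus strand: ccggtaggaattCACCTGcacgtaaacagc
PATJ, -30, chr1:61742438-61742467, plus strand: gggagggcctgcCAGGTGaggcgcggtcac
PATJ, 9, chr1:61742477-61742506, plus strand: ctcacttccgccCAGGTGaggcagggccga
In CRB3 all 5 E-boxes lie before the start site, and in CLDN7 4 of 5 do. The CLDN7 window is that of the downstream of its 2 listed start sites, at position 7262478; the upstream one has no E-box. In GENCODE release 29 other transcripts of CRB3, CLDN7 and PATJ begin farther upstream. The whole CLDN7 window, with all 5 E-boxes, and parts of the CRB3 and PATJ windows are transcribed in them. The exon of CRB3 ends at position 6464213, within its E-box at -60.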

How the data were processed

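RNA of 3 HCT116 cultures labelled Rab27B KO and 3 labelled wild type was compared, grouped by sample titles. The submitters call them biological replicates. The submitters' processing notes name HISAT, Bowtie2 and GRCh38; for counting, scaling and the test, the method is not given in the sources used. Per the file headers, the authors deposited a log2 fold change of KO over WT and a q-value per gene; for higher genes a deposited linear ratio stands beside it and differs from the exponentiated log2 value by a relative 4.53e-10 at most. Depth is unknown, so no interval can be given.

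The design foresaw a count or normalized-value test if samples were given; without them the authors' q-values at 0.05 were used and no test was added. Members, role groups and lists were chosen with earlier results of these data known. All 34 member gene IDs matched RefSeq (GRCh38.p14) under the printed symbol. Folds are 2 to the power of the absolute log2 value. Of the members all were typed mRNA. Named were all listed members, and of each partner list up to 4 genes with the largest change; others are marked. A few genes that this rule would name are counted but not reported by name. SCRIB, LLGL1 and DLG5 stood in a partner list too and were counted as members only. Transcript lengths came from GENCODE release 29. Counts and motif search were tested on simulated data. Python 3.11.15, pandas 2.3.3, numpy 2.4.6 and matplotlib 3.10.9 were used. Protein sequences were not used here.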

Additional observations from a re-analysis of the deposited data

How the results depend on the processing

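The lean to lower values held under all 7 alternatives: the lower members numbered 25, 25, 27, 25 and 22, and the higher ones 6, 4, 8, 7 and 7, at a q-value below 0.01, at one below 0.001, with older symbols resolved, without clustered protocadherins and without chromosomes 4, 7, 13 and 15. The share of lower members was 80.6%, 86.2%, 77.1%, 78.1% and 75.9% in the same order, against 48.9%, 48.5%, 49.3%, 49.2% and 44.6% of all listed genes. At a log2 change of at least 0.5, 11 members were lower and 4 higher (median -0.79), namely 2 claudins (lower; the claudin median was -0.83), 1 membrane protein, 2 scaffolds, 3 polarity genes and 3 protocadherins lower, and 1 claudin, 1 cadherin, 1 protocadherin and 1 polarity gene higher, with 0 lower cadherins, 0 nectins and 0 catenins. At 1 or more, 5 were lower and 1 higher (median -1.50): 1 claudin (-3.66), 1 membrane protein, 1 scaffold, 1 protocadherin and 1 polarity gene (-1.04) were lower, 1 cadherin higher, and 0 claudins, protocadherins, polarity genes and nectins higher. The share of lower members was 73.3% at 0.5 and 83.3% at 1, against 49.3% and 51.5% of all listed genes. Medians over all listed genes were 0.51 and -1.01 in the same order. Both size thresholds remove small changes by construction. Higher cadherins numbered 1 at a q-value below 0.01 and at one below 0.001, where 0 claudins and 1 nectin were higher. With older symbols resolved 2 polarity genes were higher, without the clusters 1 protocadherin was lower, and without the 4 chromosomes 2 claudins were lower (median -0.83). Medians were computed for groups of at least 5 listed members. Leaving out a replicate could not be done without values per sample. No paired analysis was possible because the tables carry no replicate. Only the q-value separates genes with few reads from abundant ones, and large folds at weak q-values, as in PARD3B and PCDHB14, are the least certain.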
